A study of Saccharomyces cerevisiae with 4 samples.

Results

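The genes described here encode the vacuolar polyphosphate polymerase of budding yeast and 3 further genes named for their place in phosphate metabolism. They are VTC1 (YER072W), VTC2 (YFL004W), VTC3 (YPL019C), VTC4 (YJL012C), PHM6 (YDR281C), PHM7 (YOL084W) and PHM8 (YER037W). They were chosen by gene symbol and by no cutoff on their values, although earlier results of these data were known. Each had 1 probe in the deposited table, and all 7 were measured on every array, among 4072 named genes tested. Transcripts were compared on 4 two-colour microarrays, each hybridised with 1 Saccharomyces cerevisiae culture carrying pAG305GPD-AAE13 and 1 control culture carrying pAG305GPD-ccdB. AAE13 is a plant malonyl-CoA synthetase, which joins malonate to coenzyme A. These are vectors that integrate into the genome, carry a LEU2 marker and drive their insert from the strong, constitutive GPD (TDH3) promoter. The insert of the control vector is its ccdB cassette. All cultures of both strains grew at 30 °C in SD drop-out medium, were fed 0.2 mM malonate at an OD600 of 0.1 and were collected at mid-log phase, so that no culture without malonate is in the comparison. The labels give 4 biological replicates per strain and do not say whether these were separate transformants. Arrays 1 and 3 had the AAE13 cDNA in Cy5 and arrays 2 and 4 had it in Cy3.

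Polyphosphate is a linear chain of phosphate units held in large amounts in the yeast vacuole, where it serves as a phosphate store. The VTC complex makes it at the vacuolar membrane: it takes phosphate from ATP, extends the chain and passes it through the membrane into the vacuole. When phosphate is scarce, the transcription factor Pho4 enters the nucleus and raises the PHO genes, which encode phosphate transporters, secreted phosphatases and the VTC subunits. The PHM genes were named from such phosphate-responsive transcripts.

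Values are log2 ratios of AAE13 over ccdB, with the median of each array set to 0, so that 0 is the typical probe of that array. No source used here states which strain is the numerator. AAE13 over ccdB is the likely reading, since the series title and design text both put the transgenic strain first, although the titles of arrays 2 and 4 put ccdB first. Arrays of opposite dye orientation correlated at a mean of 0.576 over all probes, against 0.693 for arrays of the same orientation, and were read as running the same way. If the ratios are ccdB over AAE13, every direction below is the opposite. If they were never turned and are Cy5 over Cy3, limma called 0 of the 4072 genes (154 at an unadjusted p under 0.05) and none of the 7 members passed. The log base is not stated either, and folds assume base 2. Before centring, the array medians were 0.431, 0.765, -0.174 and 1.41 for arrays 1 to 4. No spot intensities were analysed here, so the brightness of each probe over background is unknown, and the 4 arrays limit the precision.

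Of the 7 members, PHM8 rose, PHM6 fell and 5 did not pass, namely the 4 VTC genes and PHM7 (limma with eBayes moderation, threshold 0.05 on the adjusted p). Across all genes tested, 24.8% passed, 13% higher and 11.8% lower, so the members' count of 2 of 7 lies near that background. The members' median log2 ratio was -0.27, against -0.02 for all genes tested. The bulk RNA cannot tell a change in every cell from a change in part of the cells. Ratios kept 1 sign on every array for 5 members, and 46.4% of all genes did so.

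**Figure D1:**
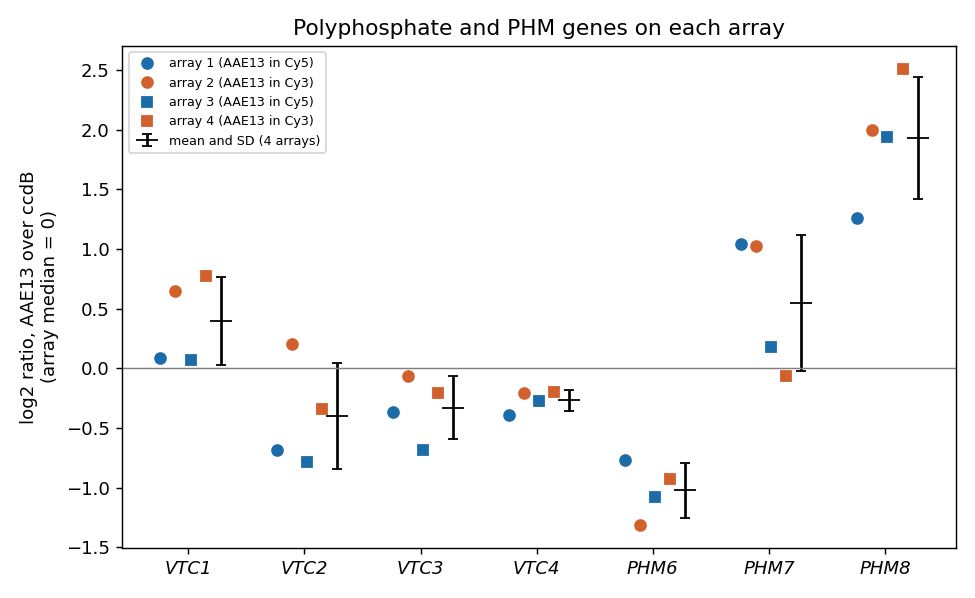
Log2 ratio of AAE13 over ccdB (vertical axis, array median at 0) for each member on the 4 arrays; blue points have AAE13 in Cy5, orange points in Cy3, and the black bar is the mean with its SD over 4 arrays. PHM8 lies between 1.26 and 2.51 and PHM6 between -1.31 and -0.76 on every array, while the VTC genes lie between -0.79 and 0.78.

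VTC4 encodes the catalytic subunit of the complex, the one that polymerises phosphate. Its log2 ratios were -0.39, -0.20, -0.28 and -0.20 on arrays 1 to 4. The arrays lay close together and all below the array median. The mean was -0.27 ± 0.09 (SD, n = 4), 1.20-fold lower, with a limma adjusted p of 0.241. The 95% interval of the moderated fit ran from -0.63 to 0.10, so that a fall beyond 1.55-fold or a rise beyond 1.07-fold lay outside it. Its SD was among the lowest of all genes, at percentile 1.87. With the same model unmoderated, so that the gene's own spread alone set the error, VTC4 had an unadjusted p of 0.0091 and still did not pass (adjusted p = 0.079). In that unmoderated test 1225 of the 4072 genes had an unadjusted p under 0.05.

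VTC1 encodes the smallest subunit, a membrane protein without the catalytic domain. It stood at 0.09, 0.64, 0.07 and 0.78 on arrays 1 to 4. It was above the median on every array, by little on the arrays with AAE13 in Cy5 and by more on the other pair. The mean was 0.40 ± 0.37 (SD, n = 4), 1.32-fold higher (limma adjusted p = 0.167; 95% interval -0.05 to 0.84).

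VTC2 and VTC3 encode paralogous accessory subunits, each carrying an SPX domain, the module that binds inositol pyrophosphates, and either one can join VTC1 and VTC4 in a complex. VTC2 was at -0.68, 0.20, -0.79 and -0.34 on arrays 1 to 4, with a mean of -0.40 ± 0.45 (SD, n = 4; limma adjusted p = 0.193; 95% interval -0.89 to 0.09). VTC3 was at -0.36, -0.06, -0.68 and -0.21, with a mean of -0.33 ± 0.26 (SD, n = 4; limma adjusted p = 0.201; 95% interval -0.74 to 0.08). VTC2 was above the array median on array 2, and VTC3 was below it on all 4 arrays. Probe sequences were not analysed here, so hybridisation of 1 paralog to the other's probe was not tested.

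The sign of 3 of the VTC values depended on centring. With the arrays not centred, VTC2, VTC3 and VTC4 were at 0.21, 0.28 and 0.34 and VTC1 at 1.00, the median of all genes then being 0.58, and none of the 4 passed (limma adjusted p from 0.0794 to 0.746; 19.6% of all genes passed under this setting). Relative to that median, VTC2, VTC3 and VTC4 were at -0.38, -0.31 and -0.24, and VTC1 was at 0.42.

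Differences between members within an array do not depend on centring. VTC1 lay above VTC2 by 0.80 ± 0.28, above VTC3 by 0.72 ± 0.22 and above VTC4 by 0.66 ± 0.30 (SD, n = 4), and on each of the 4 arrays. VTC2, VTC3 and VTC4 differed from each other by means of 0.06 to 0.13, with signs that varied between arrays. In all, 21 pairs of members were compared with a two-sided exact sign-flip permutation test, and 17 kept 1 sign on every array. Every pair with PHM8 or PHM6, the highest and lowest members, was among these 17. Pairs that share a member are not independent, and the share among pairs of other genes was not counted. With 4 arrays this exact permutation test cannot go below p = 0.125, which is what those 17 pairs gave (0.154 adjusted over the 21 pairs), so that no pair could pass. Ordered by mean log2 ratio, the members ran PHM8, PHM7, VTC1, VTC4, VTC3, VTC2 and PHM6. In that order the neighbours PHM7 and VTC1, VTC4 and VTC3, and VTC3 and VTC2 did not keep their order on every array.

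PHM8 encodes a phosphatase that acts on lysophosphatidic acid and on nucleoside monophosphates. Its log2 ratios were 1.26, 2.00, 1.94 and 2.51 on arrays 1 to 4. All 4 arrays were well above the median, at percentiles 96.4, 98.0, 97.8 and 99.2 of the genes on each array. The mean was 1.93 ± 0.51 (SD, n = 4), 3.80-fold higher, with a limma adjusted p of 0.00152 and a 95% interval from 1.41 to 2.45. It ranked 62 from the top of the 4072 genes. Leaving out each array in turn gave 1.73 to 2.15 with adjusted p from 0.00102 to 0.0125, and with the arrays not centred PHM8 was at 2.54 and passed. Without centring the median of all genes was 0.58, and PHM8 lay 1.95 above it. The call was lost in the unmoderated test (adjusted p = 0.0665), which called 143 of all genes (3.51%).

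PHM6 encodes a small protein of unknown function whose transcript is raised by low phosphate. Its log2 ratios were -0.76, -1.31, -1.08 and -0.93 on arrays 1 to 4. It was below the median on all 4, with no separation by dye. The mean was -1.02 ± 0.23 (SD, n = 4), 2.03-fold lower, with a limma adjusted p of 0.00567 and a 95% interval from -1.42 to -0.62. With the arrays not centred it was at -0.41 and did not pass (adjusted p = 0.492), and the unmoderated test gave an adjusted p of 0.057. Without centring the median of all genes was 0.58, and PHM6 lay 1.00 below it. PHM6 and PHM8 were the pair of members farthest apart, PHM8 being above PHM6 by 2.03, 3.31, 3.02 and 3.44 on arrays 1 to 4.

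PHM7 encodes a membrane protein of unknown function. Its log2 ratios were 1.05, 1.02, 0.18 and -0.06 on arrays 1 to 4. Arrays 1 and 2 were about 1 above the median and arrays 3 and 4 near it, a split that is not the dye orientation. It is not particular to PHM7, since arrays 1 and 2 also lay apart from arrays 3 and 4 for other phosphate genes, in either direction. Among them, SPL2, PHO89 and GIT1 were higher on arrays 1 and 2, as PHM7 was, and PHO84 and PHO13 were lower there. The share of all genes with this split was not counted. The mean was 0.55 ± 0.57 (SD, n = 4) and did not pass (limma adjusted p = 0.127; 95% interval -0.0048 to 1.10). With the arrays not centred PHM7 was at 1.15 and passed (adjusted p = 0.0395). In that setting the median of all genes was 0.58, and PHM7 lay 0.57 above it.

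**Figure D2:**
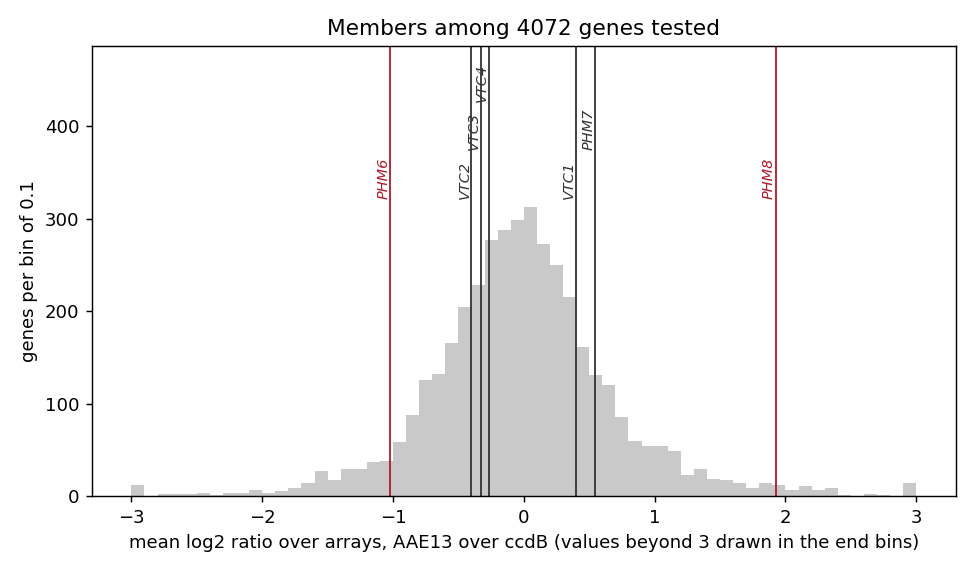
Histogram of the mean log2 ratio of AAE13 over ccdB for 4072 genes (horizontal axis; vertical axis, genes per bin of 0.1), with a line for each member, red where limma's adjusted p was under 0.05. PHM8 lies at percentile 98.5 of the genes and PHM6 at percentile 5.94, and the other 5 members lie between percentiles 25.1 and 83.4.

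The dye orientation was set beside the members' values. For 5 members, VTC1, VTC2, VTC3, VTC4 and PHM8, both arrays with AAE13 in Cy5 lay below both arrays with AAE13 in Cy3. Among all genes measured on 4 arrays, 29.6% did so and 22.4% showed the reverse. VTC1 averaged 0.08 with AAE13 in Cy5 and 0.71 with AAE13 in Cy3, a difference of -0.63 (limma orientation term, unadjusted p = 0.0402, adjusted p = 0.267). For VTC2 the difference was -0.67 and for PHM8 it was -0.65 (limma adjusted p = 0.303 and 0.381). With the orientation term in limma, 0 members passed for a dye difference, 1 had an unadjusted p under 0.05, and 0% of all genes passed, with 17.7% of them at an unadjusted p under 0.05. Each mean holds 2 arrays of each orientation, so that in the reading used a dye effect of equal size cancels in it. With the orientation term in the fit the means were therefore unchanged, and PHM8 and PHM6 kept their calls (limma adjusted p = 0.00499 and 0.00936; 31.3% of all genes passed in that fit). The other 5 members did not pass. VTC1, VTC2 and VTC3 then had an unadjusted p under 0.05, with adjusted p of 0.0549, 0.0898 and 0.103, and VTC4 had an adjusted p of 0.13. In that limma fit an unadjusted p under 0.05 was common, with 1890 of the 4072 genes and 5 of the 7 members at that level.

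**Figure D3:**
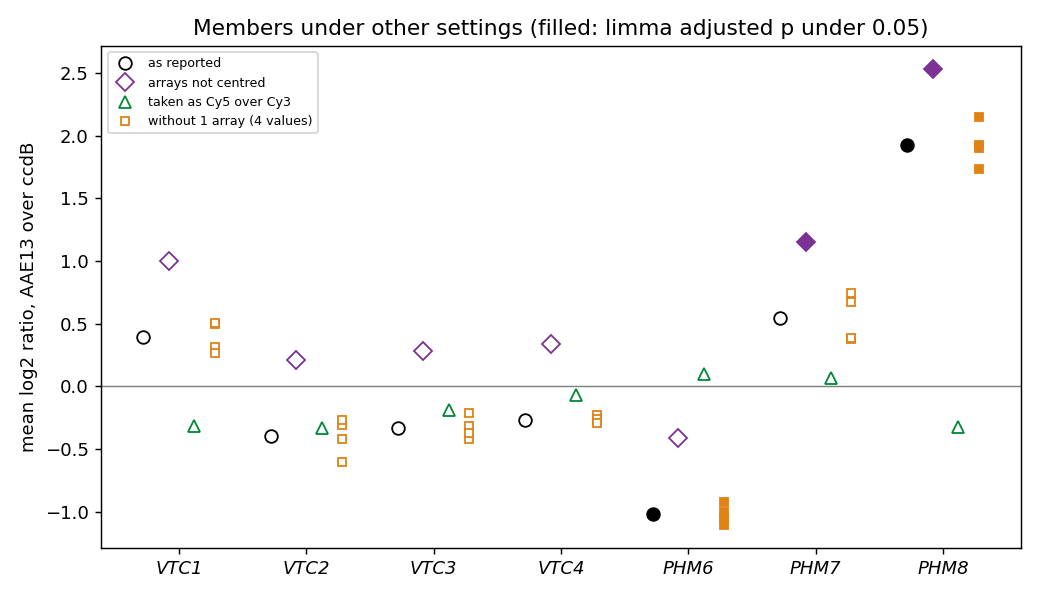
Mean log2 ratio of AAE13 over ccdB (vertical axis) for each member as reported, with the arrays not centred, with the ratios taken as Cy5 over Cy3, and without each array in turn; filled symbols have a limma adjusted p under 0.05. PHM8 is filled in all of these except the Cy5 over Cy3 reading, where it is at -0.33. PHM6 loses its call in that reading too, at 0.10, and with the arrays not centred, at -0.41, where the median of all genes is 0.58.

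The other genes of phosphate and polyphosphate handling were taken from lists of 42 genes, of which 35 were tested. Of these, 2 rose, 9 fell and 24 did not pass, with a median of -0.23, beside 13% higher and 11.8% lower among all genes tested and a median of -0.02. Those that fell were PHO84, PHO89, PHO87, GIT1, SYG1, SPL2, PHO3, PLC1 and URH1, and those that rose were ARG82 and SDT1. None of the 35 passed with the ratios read as Cy5 over Cy3, and in the unmoderated test PHO89 and GIT1 alone passed. VTC5, which encodes a further subunit of the polymerase, was not analysed here.

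Of 3 enzymes that cut polyphosphate, none passed with the arrays centred and all 4 included. PPN1, the vacuolar endopolyphosphatase, was at 0.57 ± 0.52, PPX1, the cytosolic exopolyphosphatase, at -0.28 ± 0.25, and DDP1, which hydrolyses polyphosphate and inositol pyrophosphates, at -0.01 ± 0.52 (SD, n = 4; limma adjusted p = 0.104, 0.266 and 0.975). PPN1 ran from -0.03 on array 3 to 1.22 on array 2. It passed without array 3 (0.77, limma adjusted p = 0.0436) and with the arrays not centred (1.18, adjusted p = 0.0353), and was at 0.35 without array 2 (adjusted p = 0.327). Without centring, ratios were still tested against 0 while the median of all genes was 0.58. For the making and breakdown of inositol phosphates, the ligands of SPX domains when pyrophosphorylated, 6 genes were tested, of which 1 rose, 1 fell and 4 did not pass. ARG82, an inositol polyphosphate multikinase, was higher at 1.24 ± 0.70, and PLC1, the phospholipase C that starts the pathway, was lower at -1.07 ± 0.66 (SD, n = 4; limma adjusted p = 0.0155 and 0.0237). PLC1 lost its call without array 1 or array 4 (adjusted p = 0.0668 and 0.0603) and with the arrays not centred (0.442), and ARG82 lost it without array 4 (0.0809). The inositol pyrophosphate synthases KCS1 and VIP1 were at 0.43 ± 0.29 and -0.01 ± 0.32, and the kinase gene IPK1 was at -0.25 ± 0.92 (SD, n = 4), and none of these passed (limma adjusted p = 0.114, 0.973 and 0.601).

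Among phosphate transport genes, 5 of the 8 tested fell, 0 rose and the other 3 did not pass, with a median of -0.98 and none above 0, beside 11.8% lower among all genes tested. PHO84, the main high-affinity phosphate transporter, was at -4.13, -4.56, -2.73 and -2.19 on arrays 1 to 4 (limma adjusted p = 0.00148). PHO89, the sodium-coupled phosphate transporter, was at -4.47, -4.51, -4.88 and -5.86 (limma adjusted p = 4.91e-05). GIT1, which takes up glycerophosphoinositol, was at -2.56, -2.30, -2.81 and -2.87 (limma adjusted p = 0.000188). These 3 were low on every array, and each kept its call with the arrays not centred and without each array in turn. PHO87, a low-affinity transporter with an SPX domain, was at -1.15 ± 0.37, and SYG1, also with an SPX domain, at -0.82 ± 0.39 (SD, n = 4; limma adjusted p = 0.00575 and 0.0234). Both lost their call with the arrays not centred (adjusted p = 0.351 and 0.745), and SYG1 also without array 1 or array 4 (0.0938 and 0.105). PHO90, a low-affinity transporter, PHO91, the vacuolar phosphate exporter, and PHO86, which PHO84 needs to leave the endoplasmic reticulum, were at -0.37 ± 0.50, -0.63 ± 0.50 and -0.23 ± 0.06 (SD, n = 4; limma adjusted p = 0.245, 0.0723 and 0.297). PHO91 passed with the orientation term in the fit (adjusted p = 0.0305) and without array 3 (-0.85, adjusted p = 0.0251).

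Among PHO signalling and transcription genes, 6 were tested, of which 0 rose, 1 fell and 5 did not pass. SPL2, a small regulator of the low-affinity transporters and itself a PHO target, was at -1.77, -1.77, -2.68 and -2.98 on arrays 1 to 4 (limma adjusted p = 0.00127), and kept its call with the arrays not centred and without each array in turn. The transcription factor genes PHO2 and PHO4 were at -0.11 ± 0.62 and 0.21 ± 0.43, and PHO80, the cyclin that restrains Pho4, at 0.42 ± 0.50 (SD, n = 4; limma adjusted p = 0.777, 0.477 and 0.201). Of 7 phosphatase genes, 0 rose, 1 fell and 6 did not pass. The one that fell, PHO3, the acid phosphatase that is not induced by low phosphate, had a mean of -1.03 ± 0.54 (SD, n = 4; limma adjusted p = 0.017). PHO3 lost its call without array 1 or array 4 (adjusted p = 0.0667 and 0.0619) and with the arrays not centred (0.48). PHO5, the main secreted acid phosphatase of low phosphate, was at -0.43 ± 0.26, PHO8, the vacuolar alkaline phosphatase, at 0.51 ± 0.36, and PHO11 at -0.39 ± 0.60 (SD, n = 4; limma adjusted p = 0.111, 0.0895 and 0.272). With the arrays not centred PHO8 passed (1.12, adjusted p = 0.0476), as did the phosphatase genes PHO13 and DIA3 (1.25 and 1.13, limma adjusted p = 0.0241 and 0.0448), and DIA3 passed with the orientation term as well (0.52, adjusted p = 0.0432). The median of all genes without centring was 0.58. PHO11 and PHO12 are near-identical copies that probes may not tell apart, and PHO12 was at -0.55.

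The members were set beside the 4 phosphate genes with the lowest ratios, PHO84, PHO89, GIT1 and SPL2, which were picked after their values were seen, so the comparison is a description. In all 28 pairings the member lay above the other gene on every array. VTC4 was above PHO84 by a mean of 3.13 on the log2 scale and above SPL2 by 2.03. PHM6, the member that fell, was above PHO84 by 2.38 and above SPL2 by 1.28.

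**Figure D4:**
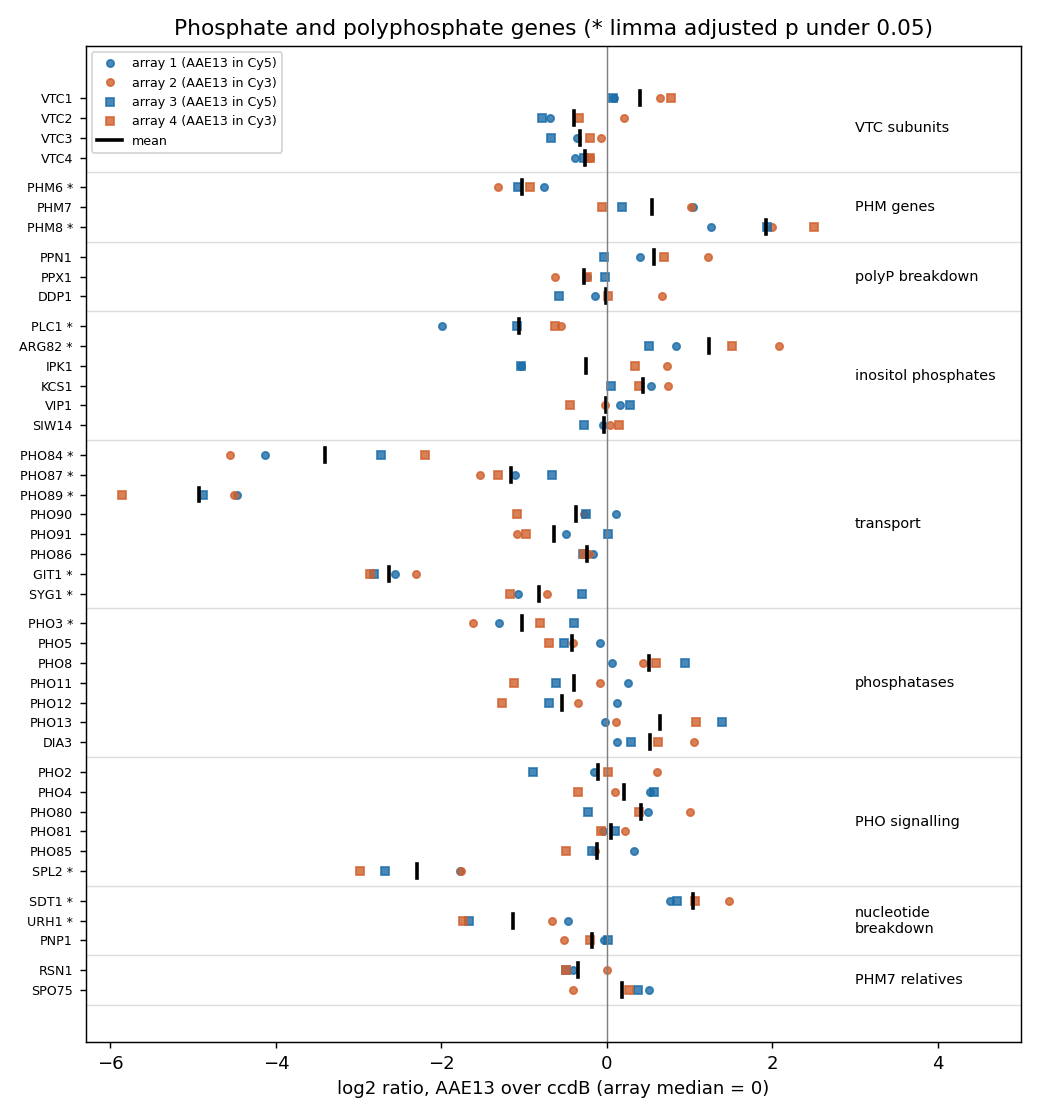
Log2 ratios of AAE13 over ccdB (horizontal axis, array median at 0) on the 4 arrays for the members and the 35 other phosphate and polyphosphate genes tested, grouped by role; colours and shapes mark the arrays, black ticks the mean, and an asterisk a limma adjusted p under 0.05. The highest value of PHO84, PHO89, GIT1 and SPL2 is -1.77, whereas the lowest VTC value is -0.79.

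For genes related to the PHM members, SDT1, the nucleotidase paralog of PHM8, was at 0.77, 1.47, 0.85 and 1.06 on arrays 1 to 4. It rose, with a mean of 1.04 ± 0.32 (SD, n = 4; limma adjusted p = 0.00712), and kept its call without each array in turn and with the arrays not centred. Hybridisation between the paralogs was not tested. URH1, a uridine nucleosidase, fell, with a mean of -1.13 ± 0.66 (SD, n = 4; limma adjusted p = 0.0189). PNP1, purine nucleoside phosphorylase, did not pass, with a mean of -0.18 ± 0.24 (SD, n = 4; limma adjusted p = 0.456). URH1 lost its call without array 4 (adjusted p = 0.0904) and with the arrays not centred (0.373). The PHM7 relatives RSN1 and SPO75 were at -0.35 ± 0.23 and 0.19 ± 0.41 (SD, n = 4), and neither passed (limma adjusted p = 0.168 and 0.52).

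The genes whose values over the 4 arrays were nearest to each member were found by the root mean square difference among 4068 other genes. For PHM8 they were RIB5, ATP14 and ARO3, at 0.236, 0.239 and 0.253. For PHM6 they were DBP2, EXG1 and TRM82, at 0.115 to 0.17, and for PHM7 they were FIT1, SOL2 and HAP1, at 0.0863 to 0.153. The VTC genes lie where genes are dense, and their nearest genes were closer, at 0.0379 to 0.0939: RPN12, STP4 and DOM34 for VTC1, PEX15, MIG1 and SEC1 for VTC2, HMX1, NSL1 and KAE1 for VTC3, and FET5, RTT102 and MRM2 for VTC4. No VTC gene was among the 3 nearest of another.

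In gene order, taken from the R64 assembly, no member overlapped the protein-coding gene on either side. Of the adjacent genes that were tested, ALD5, next to VTC1 and encoding an aldehyde dehydrogenase, was higher at 1.96, 2.05, 4.38 and 3.49 on arrays 1 to 4, whereas VTC1 did not pass. MSH4, next to VTC2 and encoding a meiotic recombination protein, was at -0.59 ± 0.20 (SD, n = 4; limma adjusted p = 0.0392). The adjacent genes SEC4, ULP1, CTF19, MAD3, RPC17, RRP45 and KRE29 did not pass.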

How the data were processed

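The deposited table holds log2 ratios of 4 two-colour arrays for 6256 probes, with 4 missing values. The unit log2 was inferred from the deposited values. The authors' normalization, software and ratio direction are not stated in the labels. Per the labels' protocols, cDNA was primed with oligo-dT and labelled indirectly. Each array was centred on its median. By the platform annotation, 4075 probes had 1 gene name, 2181 had none and 0 had several. RefSeq R64 held 3942 of these symbols as current, 125 were updated through it and 8 kept. Probes of a gene were averaged, and genes measured on at least 3 arrays were tested. The null of a ratio of 0 was tested two-sided with limma 3.58.1 under R 4.3.3 (lmFit, then eBayes), and p-values were adjusted by Benjamini-Hochberg over 4072 genes. A ratio already pairs 1 AAE13 and 1 control culture. SD values are over arrays. Figures used Python 3.11.15 and matplotlib 3.10.9.

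The members, gene lists and tests were chosen with earlier results of these data known. The text names all members, every list gene that passed, up to 3 per list that did not in list order, and the 3 genes nearest to each member. PHO12, PHO13, DIA3, SIW14, the adjacent genes and the pairings with the uptake genes were added after values were seen. The settings varied were the direction, a dye term, centring, scaling, quantile normalization, missing values, unnamed probes, array weights, moderation, threshold and leaving out each array.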

Additional observations from a re-analysis of the deposited data

Results flagged for a closer look

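No member had an array that stood apart from the other 3 by the gap test for 4 values. Among the 35 other phosphate genes tested, 5 had ratios of opposite sign in the 2 dye orientations, lying above the array median on both arrays of one orientation and below it on both arrays of the other. The share of all genes with such opposite signs was not counted. Separation by dye was common: both Cy5 arrays lay below both Cy3 arrays for 29.6% of all genes and above them for 22.4%. The mean with AAE13 in Cy5 minus the mean with AAE13 in Cy3 was -1.57 for IPK1, -0.84 for PHO2, -0.70 for DDP1, -0.25 for SIW14 (an inositol pyrophosphate phosphatase) and 0.46 for VIP1. With the orientation term in limma, none of these passed (adjusted p = 0.22, 0.321, 0.337, 0.593 and 0.405, in that order), and IPK1 had an unadjusted p of 0.00182.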

How the results depend on the processing

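Under the 15 settings that keep the direction reading, PHM8 ranged from 1.73 to 2.54 and lost its call in the unmoderated test, and PHM6 ranged from -1.11 to -0.41 and lost its call there and with the arrays not centred. VTC1 did not pass under any of them, at 0.27 to 1.00 (limma adjusted p, unmoderated included, from 0.0549 to 0.448), nor did VTC2, VTC3 or VTC4 (lowest adjusted p 0.0888, 0.103 and 0.079).

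With the ratios taken as Cy5 over Cy3, 0 genes, 0 members and 0 pathway genes passed, and VTC1, PHM6 and PHM8 turned sign, at -0.31, 0.10 and -0.33. With the ratios taken as ccdB over AAE13, VTC1 to VTC4 were at -0.40, 0.40, 0.33 and 0.27 and PHM6 to PHM8 at 1.02, -0.55 and -1.93. With the arrays not centred, VTC2, VTC3 and VTC4 turned to 0.21, 0.28 and 0.34, and of all genes 744 were higher and 55 lower. Ratios were then tested against 0 while the median of all genes was 0.58, and each member had the same moderated standard error, 0.43. Calls gained or lost in that setting therefore include this shift of the arrays. The unmoderated test called 143 genes, 0 members and 2 pathway genes. At an adjusted p under 0.01, 390 genes and 6 pathway genes passed.

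Leaving out each array gave 427 to 1045 genes, 2 members each time and 6 to 13 pathway genes, the lowest counts of genes and pathway genes being without array 4. The causes were not tested. The tests on ratios were paired by array, since each ratio already pairs 1 culture of each strain. No intensities were analysed, so limits set by dim probes are unknown.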
